A study of Mus musculus with 96 samples.

Results

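The DNA replication and S phase genes described here are 40 mouse genes whose products license, fire and copy replication origins, supply deoxynucleotides, or handle chromatin and checkpoint signals at the fork. They were chosen by gene symbol, by a rule that uses no measured value but with earlier results of these data known, and they make up 40 of the 49466 gene rows of the count table. The cells were taken at embryonic day 14.5 from the liver of C57/Bl6J mice, with no treatment or genetic change named in the labels. After magnetic depletion of cells carrying lineage markers, Sca-1, CD16/32 or CD41, single cells were sorted by CD117 and by CD71 and CD24 into 1 plate of 96 wells, and full-length Smart-seq2 RNA-seq was performed on each. The 4 gates held 24 wells each: BFUE (burst-forming progenitors, the earliest), Intermediate_25-35 and Intermediate_50-60 (graded by the percentage of CD71/CD24 expression), and CFUE (colony-forming progenitors, the latest). The labels name no animal for any well, so each gate counts as 1 sample, differences between gates have no replicate check, and neither a test nor a p-value is given. Plate rows A to D are called the upper rows and E to H the lower rows. Values from each alone show how far a difference depends on the rows used. Each gate filled its own columns of the plate, so gate and plate column cannot be told apart.

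Before S phase, the origin recognition complex, Cdc6 and Cdt1 load the Mcm2 to Mcm7 ring onto origins, and geminin blocks its reloading once replication has begun. Cdc45 and the GINS complex then join the ring to form the active helicase, and primase, DNA polymerases, the sliding clamp Pcna and its loader copy the strands while ribonucleotide reductase and thymidylate synthase supply deoxynucleotides. Most of these genes are transcribed from late G1 by E2F factors, and fetal liver erythroid progenitors are known for fast cycling and for a tie between S phase and their terminal differentiation.

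After wells under 50000 reads were left out, 91 of 96 wells remained, with 947458 to 3785903 reads each and a median of 9363 genes. The 5 wells left out held 10596 to 16644 reads. Levels are given as CPM, the reads of a gene scaled to a fixed total of reads per library. The BFUE gate was split at 100 CPM of Cd34, a gene of early progenitors: 15 kept wells held 5.16 CPM or less and 8 held 1036 to 2202 CPM. The summed level of 10 erythroid markers was 838 to 2165 CPM in the Cd34-low BFUE wells, 2520 to 9461 CPM in CFUE and 13.4 to 293 CPM in the Cd34-high wells, so the Cd34-high wells go against the erythroid label of their gate. In the Cd34-high wells, 12 neutrophil and monocyte markers summed to 350 to 7041 CPM, with Elane, Cebpe, S100a8, S100a9 and Ly6c2 at 0 reads, against 1.32 to 184 CPM in the Cd34-low wells. CFUE well D10 also stood apart, with the fewest reads, 6361 detected genes, 5.15% mitochondrial reads and 3.17 CPM of the erythroid factor Gata1. In D10, Mcm3, Mcm5, Mcm6 and Mcm7 lay between 7.39 and 14.8 CPM while Orc6 reached 1937 CPM and Gmnn 1507 CPM. Several ratios and counts are also given without this well, but the CFUE well ranges below include it. D10 sets their low end for Cdc6, Mcm6, Cdc45, Mcm10, Gins1, Pold1, Rpa2, Rrm1 and Chaf1b. It sets their high end for Orc6, Gmnn, Rfc4 and Tyms. The next lowest CFUE wells held 940 CPM of Mcm6 and 820 CPM of Rrm1.

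The promoters below belong to the members with the 3 largest and 2 of the 3 smallest CFUE to Cd34-low BFUE ratios, and to Mcm6, shown because its window held more E2F-type matches than that of any other member. They show how far the members at both ends of the response share the E2F-type letters that recur in this gene set. Each runs 5′ to 3′ on the strand of its gene, from 250 bases before to 30 bases after the RefSeq start (GRCm38.p6), with matches to TTTGGCGC, TTTCCCGC, TTTCGCGC or TTTGCCGC on either strand in capitals. The regions are chr12:24708004-24708283 (plus strand, Rrm2), chr11:98907901-98908180 (plus, Cdc6), chr16:23127701-23127980 (minus, Rfc4), chrX:93632126-93632405 (minus, Pola1), chr7:44548786-44549065 (minus, Pold1) and chr1:128359676-128359955 (minus, Mcm6). Rfc2, the remaining member of the 3 smallest ratios, is named only.
Rrm2: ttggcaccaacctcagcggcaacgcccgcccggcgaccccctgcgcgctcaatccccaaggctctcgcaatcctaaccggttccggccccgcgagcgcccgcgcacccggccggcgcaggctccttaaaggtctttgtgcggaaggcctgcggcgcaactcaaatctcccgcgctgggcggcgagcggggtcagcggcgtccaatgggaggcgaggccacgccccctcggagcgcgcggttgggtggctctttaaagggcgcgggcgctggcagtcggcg
Cdc6: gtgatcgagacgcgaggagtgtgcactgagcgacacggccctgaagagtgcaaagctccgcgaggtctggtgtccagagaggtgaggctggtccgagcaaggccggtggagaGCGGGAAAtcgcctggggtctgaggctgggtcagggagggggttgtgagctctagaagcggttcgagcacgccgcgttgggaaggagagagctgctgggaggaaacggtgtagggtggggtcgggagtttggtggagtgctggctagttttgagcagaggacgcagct
Rfc4: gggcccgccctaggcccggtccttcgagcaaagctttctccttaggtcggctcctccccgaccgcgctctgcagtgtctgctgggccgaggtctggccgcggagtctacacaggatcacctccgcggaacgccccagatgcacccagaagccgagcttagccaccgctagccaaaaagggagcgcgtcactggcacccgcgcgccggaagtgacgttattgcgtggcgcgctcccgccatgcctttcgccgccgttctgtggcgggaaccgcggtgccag
Pola1: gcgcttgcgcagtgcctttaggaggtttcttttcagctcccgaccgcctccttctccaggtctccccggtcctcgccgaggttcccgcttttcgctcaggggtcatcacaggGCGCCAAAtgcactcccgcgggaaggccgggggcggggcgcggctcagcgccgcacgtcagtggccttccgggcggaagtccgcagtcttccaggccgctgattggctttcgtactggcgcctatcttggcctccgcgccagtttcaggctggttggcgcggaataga
Pold1: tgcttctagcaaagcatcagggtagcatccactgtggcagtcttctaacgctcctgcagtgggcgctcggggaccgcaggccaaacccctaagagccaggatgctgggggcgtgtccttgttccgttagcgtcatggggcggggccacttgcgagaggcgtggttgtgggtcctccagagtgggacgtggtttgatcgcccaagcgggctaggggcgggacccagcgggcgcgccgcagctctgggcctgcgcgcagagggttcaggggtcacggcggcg
Mcm6: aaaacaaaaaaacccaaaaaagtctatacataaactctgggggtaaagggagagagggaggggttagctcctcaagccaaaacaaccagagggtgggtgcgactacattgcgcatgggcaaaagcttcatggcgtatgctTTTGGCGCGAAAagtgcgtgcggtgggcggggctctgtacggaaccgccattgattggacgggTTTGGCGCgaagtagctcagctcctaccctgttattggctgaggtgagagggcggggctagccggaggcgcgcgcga

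Windows reaching 50 bases past the start were searched for 33 of the 40 members (37 windows, since some genes have several starts), the others being Gins1, Gins2, Gins4, Gmnn, Mcm4, Pole and Rfc2. The E2F-type letters were present for 13 of these 33 genes (39.4%), against 2.61% of all genes with a window, and in 35.1% of the member windows against 2.27% of all 32851 windows. The 13 genes were Mcm3, Mcm5, Mcm6, Mcm7, Orc1, Cdc6, Cdt1, Clspn, Gins3, Lig1, Pola1, Pold1 and Rfc3. In Mcm6 a TTTGGCGC and a reverse-strand TTTCGCGC overlap, and a further TTTGGCGC lies nearer the start. The Pold1 match, a reverse-strand TTTCCCGC, begins 39 bases after the start and so lies outside the printed stretch. The letters TTTGAA or TTCGAA, searched as the cell cycle homology region (CHR) on both strands, occurred in 16.2% of member windows and 19.2% of all windows. The 13 genes with the E2F-type letters had a median log2 ratio, CFUE over Cd34-low BFUE, of 0.26 with 2 genes higher by 1.5-fold or more. The 20 without them had a median of 0.43 with 6. Of all genes at 10 CPM or more in either group, 13.6% were higher by as much. Whether the letters go with the ratio was not tested. No match in a window says only that these letters are not within it.

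The whole set took a larger part of the transcriptome in the later gates. Per well, the 40 genes together held 0.819% to 1.87% of reads in Cd34-low BFUE (median 1.06%), 0.849% to 1.80% in Intermediate_25-35 (median 1.35%), 1.08% to 1.93% in Intermediate_50-60 (median 1.52%) and 0.836% to 2.07% in CFUE (median 1.57%). The Cd34-high BFUE wells held 0.619% to 1.88%, with a median of 0.743%. The ranges of all groups overlap, while the medians rise from gate to gate and the step from Intermediate_50-60 to CFUE is the smallest. The lowest CFUE value is that of well D10.

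From Cd34-low BFUE to CFUE, 9 of the 40 members were higher by 1.5-fold or more and 1 was lower, with the threshold requiring 10 CPM in either group. Over all 8246 genes that reached 10 CPM, 13.6% were higher and 24.9% lower by the same rule. The median log2 ratio of the members was 0.35 against -0.11 for all genes, and 34 of the 40 lay above 0. Against all kept BFUE wells, 12 members were higher and 0 lower (median 0.45), where 13.7% of all genes were higher and 29.6% lower. Leaving out well D10 gave 9 higher and 1 lower against Cd34-low BFUE, and 14 higher and 0 lower against all BFUE. The upper rows alone gave 17 higher and 2 lower against Cd34-low BFUE, where 19.3% of all genes were higher. The lower rows gave 6 higher and 2 lower, where 16.5% of all genes were higher, so the count of the lower rows is near that of all genes. The member median was 0.42 in the upper and 0.29 in the lower rows. All 40 members reached 10 CPM in every comparison. Scaling by edgeR's TMM factors moved the median of all genes in the comparison with Cd34-low BFUE from -0.11 to 0.0079, and with that scaling 13 members were higher (17.3% of all genes), 0 lower and the member median was 0.46. Interval values below are 95% intervals of the counting error of reads, which are not independent molecules, and do not cover differences between animals.

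**Figure D1:**
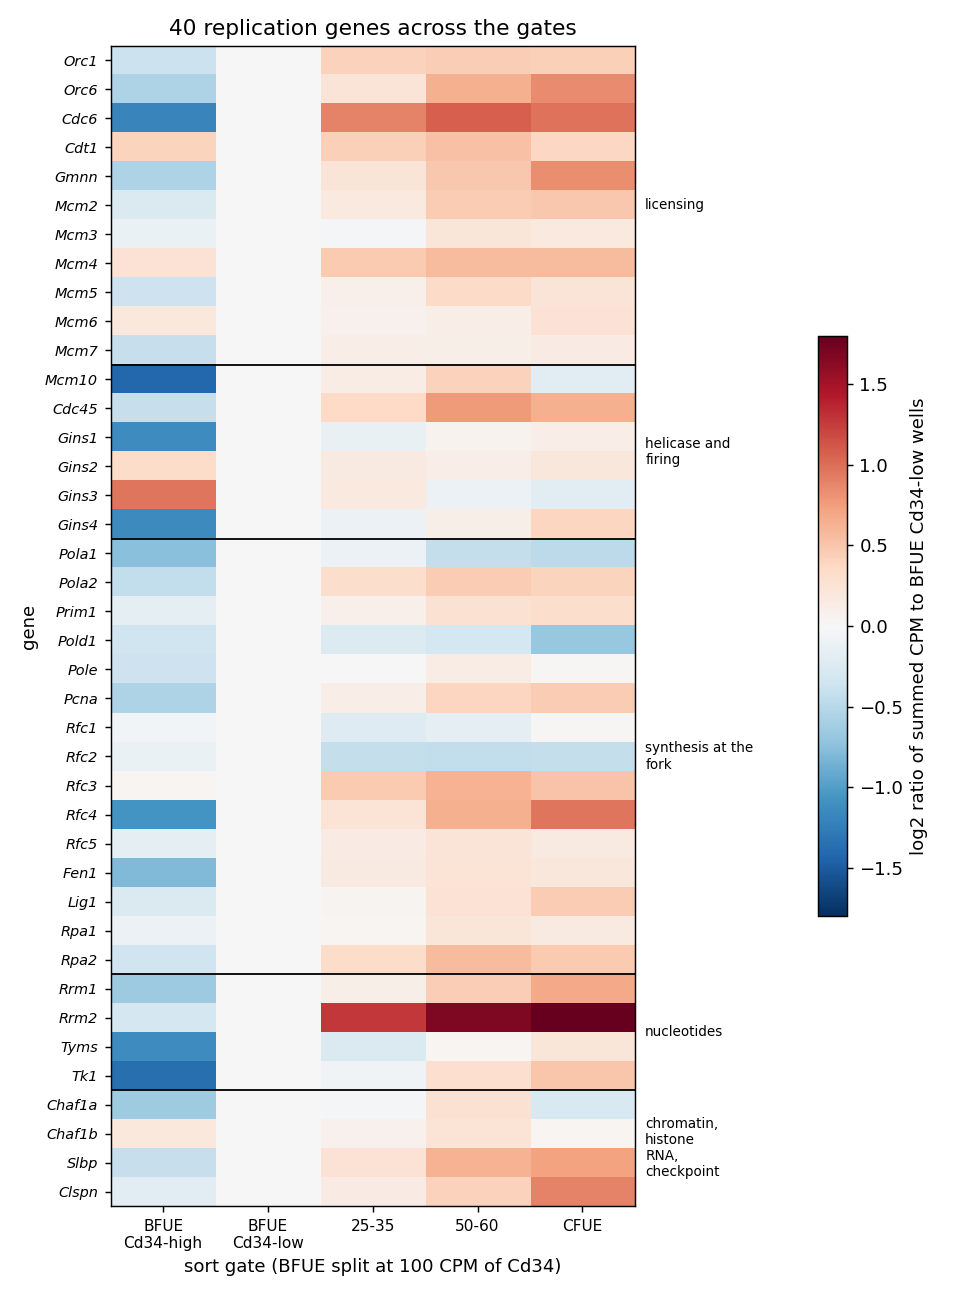
Summed CPM of each of the 40 genes (rows, grouped by role) in each group (columns) as the log2 ratio to the 15 Cd34-low BFUE wells, red for higher and blue for lower. Rrm2 is the deepest red from Intermediate_25-35 onward, and the Cd34-high BFUE column is mostly blue.

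Of the 11 licensing genes, CFUE was past the threshold over Cd34-low BFUE for 3, all higher, and the median log2 ratio was 0.43. Over all genes, 13.6% were higher and 24.9% lower. Cdc6, the ATPase that recruits the Mcm loader to origins, ranged from 0.627 to 406 CPM in Cd34-low BFUE (median 156), 84.5 to 611 in Intermediate_25-35 (median 337), 1.72 to 663 in Intermediate_50-60 (median 360) and 5.28 to 679 in CFUE (median 293). Its difference lay at the first step, where the summed level went from 166 to 307 CPM, a ratio of 1.85 (interval 1.78 to 1.92). The 3 later gates overlapped almost fully, and CFUE over Cd34-low BFUE was 1.97 (1.91 to 2.04). The first-step ratio was 2.62 in the upper rows alone and 1.38, under the threshold, in the lower rows.

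Orc6, the smallest subunit of the origin recognition complex, had well values of 98.6 to 355 CPM in Cd34-low BFUE (median 169), 112 to 456 in Intermediate_25-35 (median 194), 155 to 382 in Intermediate_50-60 (median 292) and 129 to 1937 in CFUE (median 285). Unlike Cdc6, its summed level went up at each step with well D10 included, and 20 of the 23 CFUE wells exceeded the Cd34-low median. The ratio CFUE over Cd34-low BFUE was 1.81 (1.75 to 1.87), and 1.56 without well D10, which held 16.2% of the CFUE reads of the gene. It was 1.31 in the lower rows alone. Gmnn, which encodes geminin, had 75.1 to 343 CPM in Cd34-low BFUE (median 154), 74.8 to 340 in Intermediate_25-35 (median 216), 111 to 483 in Intermediate_50-60 (median 244) and 180 to 1507 in CFUE (median 276). All 23 CFUE wells lay above the Cd34-low median of Gmnn, although the ranges overlap. The Gmnn ratio was 1.79 (1.73 to 1.85), 1.61 without well D10 and 1.49 in the lower rows.

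The 6 subunits of the Mcm2 to Mcm7 ring did not reach the threshold. Mcm4 came nearest, at 1.49 (1.46 to 1.52), followed by Mcm2 at 1.40 (1.38 to 1.43), while Mcm3, Mcm5, Mcm6 and Mcm7 had ratios between 1.11 and 1.197. Mcm6, with the highest level per kilobase of transcript in this role, had 417 to 1911 CPM in Cd34-low BFUE (median 1214), 749 to 1583 in Intermediate_25-35 (median 1159), 785 to 1747 in Intermediate_50-60 (median 1258) and 11.6 to 1980 in CFUE (median 1373). These ranges overlap, and 14 of 23 CFUE wells exceeded the Cd34-low median. For Mcm2 and Mcm4, 21 and 22 of the 23 CFUE wells did, and the ratio of median wells was 1.945 and 1.51. Orc1, the largest subunit of the origin recognition complex, had a ratio of 1.35 (1.26 to 1.44), and Cdt1, the partner of Cdc6 in loading, 1.30 (1.26 to 1.34).

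Of the 6 helicase and firing genes, 1 was higher in CFUE than in Cd34-low BFUE and 0 lower (median log2 ratio 0.16). Over all genes, 13.6% were higher and 24.9% lower. Cdc45, the helicase cofactor, had 29.3 to 263 CPM in Cd34-low BFUE (median 130), 60.2 to 290 in Intermediate_25-35 (median 126), 92.3 to 436 in Intermediate_50-60 (median 169) and 2.11 to 375 in CFUE (median 177). Its groups overlap widely. The ratio was 1.56 (1.496 to 1.63), and it was 1.40 with every cell thinned to 500000 reads. Mcm10, which helps activate the helicase, had 45.2 to 388 CPM in Cd34-low BFUE (median 163), 3.18 to 402 in Intermediate_25-35 (median 162), 89.8 to 450 in Intermediate_50-60 (median 230) and 0 to 365 in CFUE (median 135). It peaked in Intermediate_50-60 and was the single member past the threshold at the last step, 1.53-fold lower in CFUE (1.47 to 1.58). That fold was 1.49 without well D10 and 1.38 in the upper rows, both under the threshold.

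The 4 GINS subunits, which travel with the helicase, did not move together. Gins4 was 1.59-fold higher in CFUE than in all BFUE wells (1.52 to 1.65), from 103 to 163 CPM, but 1.31 against Cd34-low BFUE alone. In the upper rows its ratio against all BFUE wells was 1.496, just under the threshold. Gins1 had 2.35 to 117 CPM in Cd34-low BFUE (median 60.5), 3.998 to 135 in Intermediate_25-35 (median 48.8), 0 to 123 in Intermediate_50-60 (median 70.2) and 1.06 to 162 in CFUE (median 68.0), with a ratio of 1.09 (1.02 to 1.16). Gins2 had a ratio of 1.15 and Gins3 of 0.873. Gins3 was the least abundant of the GINS genes per kilobase of transcript, at 10.8 CPM per kilobase in Cd34-low BFUE and 9.44 in CFUE, with no reads in 2 of the 15 and 2 of the 23 wells. Of the Gins2 exon bases, 67.3% overlap Gse1 on the other strand, and whether the counting used strand is not known here, so reads of such partners cannot be told apart.

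**Figure D2:**
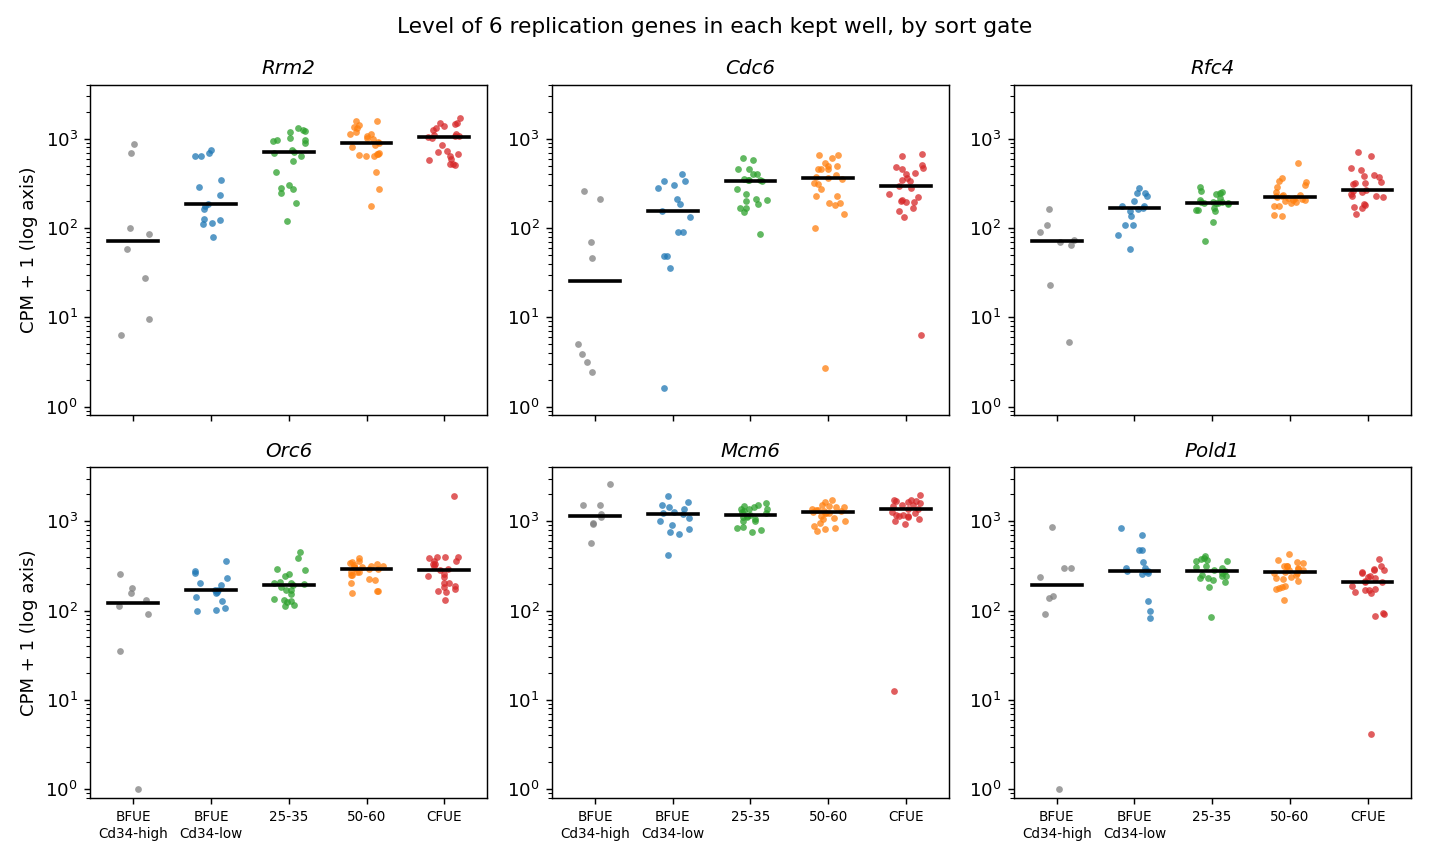
Level of 6 of the genes in each kept well (points) by group, as CPM + 1 on a log axis, with the median as a bar. The medians of Rrm2, Rfc4 and Cdc6 are higher in CFUE than in Cd34-low BFUE, the Mcm6 medians stay between 1157 and 1373 CPM, and the single CFUE point far below the rest for Mcm6 and Pold1 and far above it for Orc6 is well D10.

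Of the 15 genes of DNA synthesis, 1 was higher in CFUE than in Cd34-low BFUE and 1 lower (median log2 ratio 0.21, 12 of 15 above 0). Both counts are under the shares of all genes, 13.6% higher and 24.9% lower. Rfc4, a small subunit of the clamp loader, had 57.6 to 278 CPM in Cd34-low BFUE (median 169), 70.0 to 286 in Intermediate_25-35 (median 192), 134 to 535 in Intermediate_50-60 (median 220) and 144 to 715 in CFUE (median 269). It went up at every step, and 21 of the 23 CFUE wells exceeded the Cd34-low median. The ratio was 1.95 (1.88 to 2.02) and 1.88 without well D10. Of its exon bases, 12.7% overlap Eif4a2 on the other strand. The other subunits of the same loader differed from it: Rfc3 had a ratio of 1.43, Rfc5 of 1.12, Rfc1 of 1.02 and Rfc2 of 0.740.

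Pold1, the catalytic subunit of DNA polymerase delta, was the 1 member lower in CFUE. Its wells held 81.6 to 845 CPM in Cd34-low BFUE (median 276), 83.6 to 409 in Intermediate_25-35 (median 273), 129 to 430 in Intermediate_50-60 (median 266) and 3.17 to 381 in CFUE (median 210). The summed level was 1.602-fold lower (1.55 to 1.65), and 1.49-fold lower with TMM scaling, under the threshold. Among these groups the highest well lay in Cd34-low BFUE, a Cd34-high BFUE well reached 859.5 CPM, and the ranges overlap. Pola1, the catalytic subunit of the primase-bound polymerase alpha, also had its highest summed level in Cd34-low BFUE, with a ratio of 0.719 (0.692 to 0.748). Pola1 and Pold1 were the 2 members whose summed level went down at every step. With well D10 included, 13 members, Orc6 among them, went up at every step. The same patterns were not counted over all genes. The partner subunit of Pola1, Pola2, had a ratio of 1.32 and the primase subunit Prim1 one of 1.25, so subunits of 1 enzyme differed in direction.

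Pcna, the sliding clamp, had 289 to 999 CPM in Cd34-low BFUE (median 510), 331 to 822 in Intermediate_25-35 (median 675), 361 to 1042 in Intermediate_50-60 (median 743) and 439 to 1261 in CFUE (median 762). Of the members it had the highest level per kilobase of principal transcript in CFUE, at 515 CPM per kilobase, against 376 in Cd34-low BFUE. CFUE was 1.52-fold over all BFUE wells (1.496 to 1.55) and 1.37-fold over the Cd34-low wells. Rpa2, of the single-strand binding complex, had 30.7 to 557 CPM in Cd34-low BFUE (median 245), 153 to 517 in Intermediate_25-35 (median 262), 171 to 557 in Intermediate_50-60 (median 357) and 5.28 to 555 in CFUE (median 338), with a ratio of 1.38 (1.34 to 1.43). Its partner Rpa1 had 1.12. Lig1, which joins Okazaki fragments, had 1.37, Fen1, which trims them, 1.16, and Pole, the catalytic subunit of polymerase epsilon, 1.01. For Fen1, 78.8% of exon bases overlap the antisense gene Gm10143, so its reads and those of its partner cannot be told apart.

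The 4 nucleotide genes held the largest difference. Rrm2, the regulated small subunit of ribonucleotide reductase, had 78.0 to 737 CPM in Cd34-low BFUE (median 184), 119 to 1312 in Intermediate_25-35 (median 708), 174 to 1597 in Intermediate_50-60 (median 899) and 511 to 1725 in CFUE (median 1041). The lower end of the range moved as well as the median, and all 23 CFUE wells exceeded the Cd34-low median. The summed level went from 290 to 703 CPM at the first step, a ratio of 2.43 (2.36 to 2.49), then to 928 and 1005 CPM. CFUE over Cd34-low BFUE was 3.47 (3.38 to 3.56). Rrm2 was past the threshold in the upper rows (5.01) and in the lower rows (2.57), and was the 1 member past 2-fold in this comparison.

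Rrm1, the large subunit of the same enzyme, had 652 to 1299 CPM in Cd34-low BFUE (median 945), 666 to 1587 in Intermediate_25-35 (median 1041), 782 to 1861 in Intermediate_50-60 (median 1318) and 185 to 2062 in CFUE (median 1589). The ratio was 1.61 (1.58 to 1.63), and 21 of 23 CFUE wells exceeded the Cd34-low median. Per kilobase of principal transcript, the summed level of Rrm2 was 132 CPM against 238 for Rrm1 in Cd34-low BFUE. In CFUE it was 458 against 382, so by these lengths (2193 and 3997 bases) the order was exchanged. That order depends on the length used. Over all annotated exon bases (2771 for Rrm2, 11012 for Rrm1), Rrm2 lay above Rrm1 in both groups. Tk1, the thymidine kinase of the salvage route, was 1.75-fold higher in CFUE than in all BFUE wells (1.69 to 1.80), and 1.41-fold over the Cd34-low wells. In the upper rows the Tk1 ratio against all BFUE was 1.38. Tyms, the thymidylate synthase, had 156 to 493 CPM in Cd34-low BFUE (median 295), 134 to 469 in Intermediate_25-35 (median 244), 182 to 513 in Intermediate_50-60 (median 290) and 148 to 790 in CFUE (median 332), with a ratio of 1.17 (1.14 to 1.201).

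Of the 4 chromatin, histone RNA and checkpoint genes, 2 were higher in CFUE than in Cd34-low BFUE (median log2 ratio 0.38). Over all genes, 13.6% were higher. Slbp, which binds the stem-loop of histone mRNAs, had 129 to 451 CPM in Cd34-low BFUE (median 332), 139 to 714 in Intermediate_25-35 (median 312), 208 to 857 in Intermediate_50-60 (median 377) and 155 to 760 in CFUE (median 492), with a ratio of 1.65 (1.61 to 1.70) and 1.38 in the lower rows. Clspn, the adaptor of the replication checkpoint, was rare: 0 to 133 CPM in Cd34-low BFUE (median 14.7, with no reads in 3 wells), 1.86 to 161 in Intermediate_25-35 (median 35.6), 1.65 to 126 in Intermediate_50-60 (median 43.9) and 9.89 to 163 in CFUE (median 44.1). No kept CFUE well lacked Clspn reads, and 22 of 23 exceeded the Cd34-low median. The Clspn ratio was 1.85 (1.72 to 2.004). The chromatin assembly subunits did not differ in this way: Chaf1a had a ratio of 0.825, and Chaf1b, with 38.9 to 356 CPM in Cd34-low BFUE (median 167), 50.4 to 411 in Intermediate_25-35 (median 138), 46.3 to 425 in Intermediate_50-60 (median 181) and 2.11 to 412 in CFUE (median 172), one of 1.03 (0.986 to 1.07). Of the Chaf1a exon bases, 52.5% overlap Ubxn6 on the other strand.

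**Figure D3:**
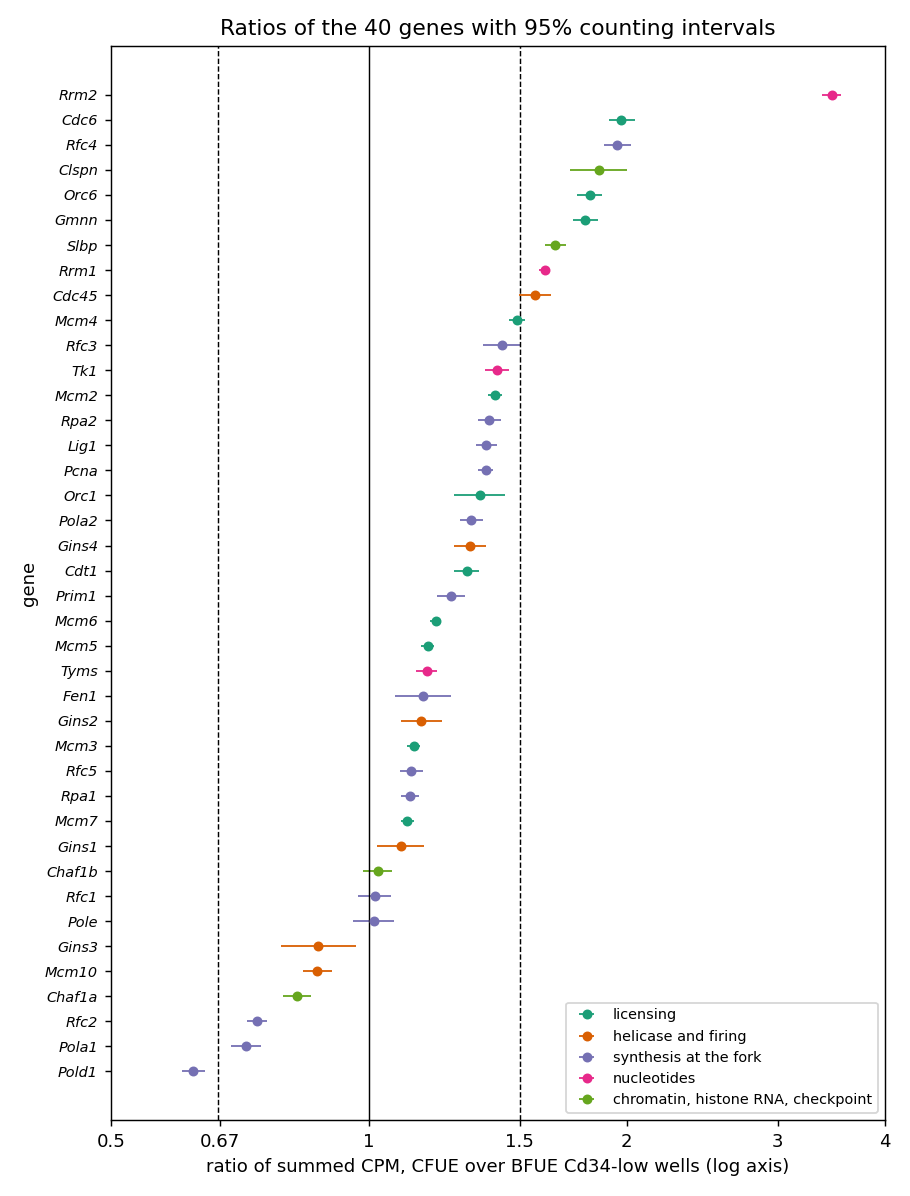
Ratio of summed CPM, CFUE over Cd34-low BFUE, for the 40 genes (points, coloured by role) with 95% counting intervals (bars) on a log axis. The solid line marks 1 and the dashed lines 1.5-fold, with Rrm2 at 3.47 far to the right and Pold1 past the left line.

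The difference between the ends of the series was not spread evenly over the steps. At the first step, Intermediate_25-35 over Cd34-low BFUE, 2 members (Rrm2 and Cdc6) were higher and 0 lower, where 9.54% of all genes were higher and 17.7% lower, and the member median was 0.13. Against all BFUE wells the same 2 members were higher and 0 lower, where 10.1% and 24.3% of all genes were. At the middle step, 0 members were past the threshold in either direction (all genes 7.34% higher, 9.27% lower), but 34 of the 40 log2 ratios lay above 0, with a median of 0.19 against -0.021 for all genes. At the last step, 0 members were higher and 1, Mcm10, was lower (all genes 7.98% and 9.70%), and the member median was 0.0077. With well D10 included, the summed level was highest in CFUE for 20 members and in Intermediate_50-60 for 16. It was highest in Intermediate_25-35 for 1 and in Cd34-low BFUE for 3 (Pola1, Pold1 and Rfc2), a pattern not counted over all genes. At the first step 10 members were higher in the upper rows alone, where 14.9% of all genes were, and 2 in the lower rows, where 14.3% were, so that count depends on the rows used.

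Within the BFUE gate, 11 of the 40 members were lower in the Cd34-high than in the Cd34-low wells and 1 was higher, where 25.4% of all genes were lower and 30.4% higher. The count of lower members is thus near that of all genes, while few members were higher and the member median was -0.38 against 0.028 for all genes. Tk1 had 0.640 to 234 CPM in the 8 Cd34-high wells (median 37.1) and 42.8 to 504 in the 15 Cd34-low wells (median 177), 2.57-fold lower (at most 2.76 by its interval). Mcm10 was 2.67-fold lower (2.48 to 2.89), although 1.25-fold in the upper rows. Cdc6 was 2.27-fold lower (2.11 to 2.45), and Gins4, Gins1, Tyms and Rfc4 were 2.10-fold to 2.22-fold lower. Fen1, Pola1, Rrm1 and Chaf1a were the others past the threshold, at 1.55-fold to 1.74-fold. Gins3 was the 1 member higher, 27.2 CPM against 53.0, with no reads in 3 of the 8 wells and a value 0.251 lower on the log2 scale in the lower rows. The licensing genes Mcm4, Mcm6 and Cdt1 had 540, 1290 and 286 CPM in the Cd34-high wells against 449, 1128 and 216 in the Cd34-low wells. Without the highest well of each gene in each group, 22 members were lower and 0 higher, where 35.05% of all genes were lower and 23.2% higher, with medians of -0.62 and -0.21. Markers of other lineages move with this split beside the neutrophil and monocyte genes. The summed level of the stem and multipotent markers was 3312 CPM in the Cd34-high against 466 in the Cd34-low wells. That list includes Cd34 itself, so its difference is in part set by the rule of the split. The lymphoid markers had 1003 against 9.46 CPM, and the endothelial and stromal markers 201 against 13.2 CPM. The part of these lineages in the member differences was not tested.

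Cell cycle phase was called from genes outside the set, so that the members could be read against it. The S score was the mean over 23 S phase genes that are no members and the G2M score the mean over 54 G2 and mitosis genes, from cells thinned to 500000 reads, as log2(CPM + 10) centred per gene over kept wells. A cell was called S where its S score was over 0 and not under the G2M score, G2M where the G2M score was over 0 and higher, and neither otherwise. These classes are ranges of 2 scores, not cell types, and 30 of the 91 cells lay within 0.1 of a cut. The calls use no measure of DNA content.

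In S were 4 of 15 Cd34-low BFUE cells (26.7%, exact interval 7.79% to 55.1%), 13 of 21 Intermediate_25-35 cells (61.9%, 38.4% to 81.9%), 17 of 24 Intermediate_50-60 cells (70.8%, 48.9% to 87.4%) and 6 of 23 CFUE cells (26.1%, 10.2% to 48.4%). The intermediate gates thus held the larger S shares, and the BFUE and CFUE intervals overlap almost entirely. G2M was called in 9 of 15 Cd34-low BFUE cells (60.0%), 7 of 21 and 6 of 24 intermediate cells (33.3% and 25.0%), and 15 of 23 CFUE cells (65.2%, 42.7% to 83.6%). The median S score of CFUE was 0.19, above 0, and its median G2M score was 0.32, so many CFUE cells scored above 0 on both. Of the CFUE cells, 10 lay near a cut, and the S share was 34.8% with the members added to the S genes and 52.2% when scores were centred within each gate. That centring gave 46.7%, 61.9% and 50.0% in Cd34-low BFUE and the intermediate gates. It takes out the mean of each gate, and with it the differences between gates. It therefore cannot show whether the order of the shares holds. By plate rows, the S share was 14.3% in the upper and 37.5% in the lower rows of Cd34-low BFUE, 58.3% and 66.7% in Intermediate_25-35, 83.3% and 58.3% in Intermediate_50-60, and 36.4% and 16.7% in CFUE. Of the 8 Cd34-high BFUE cells, 2 were called S and 5 neither, with S scores from -1.97 to 0.58.

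**Figure D4:**
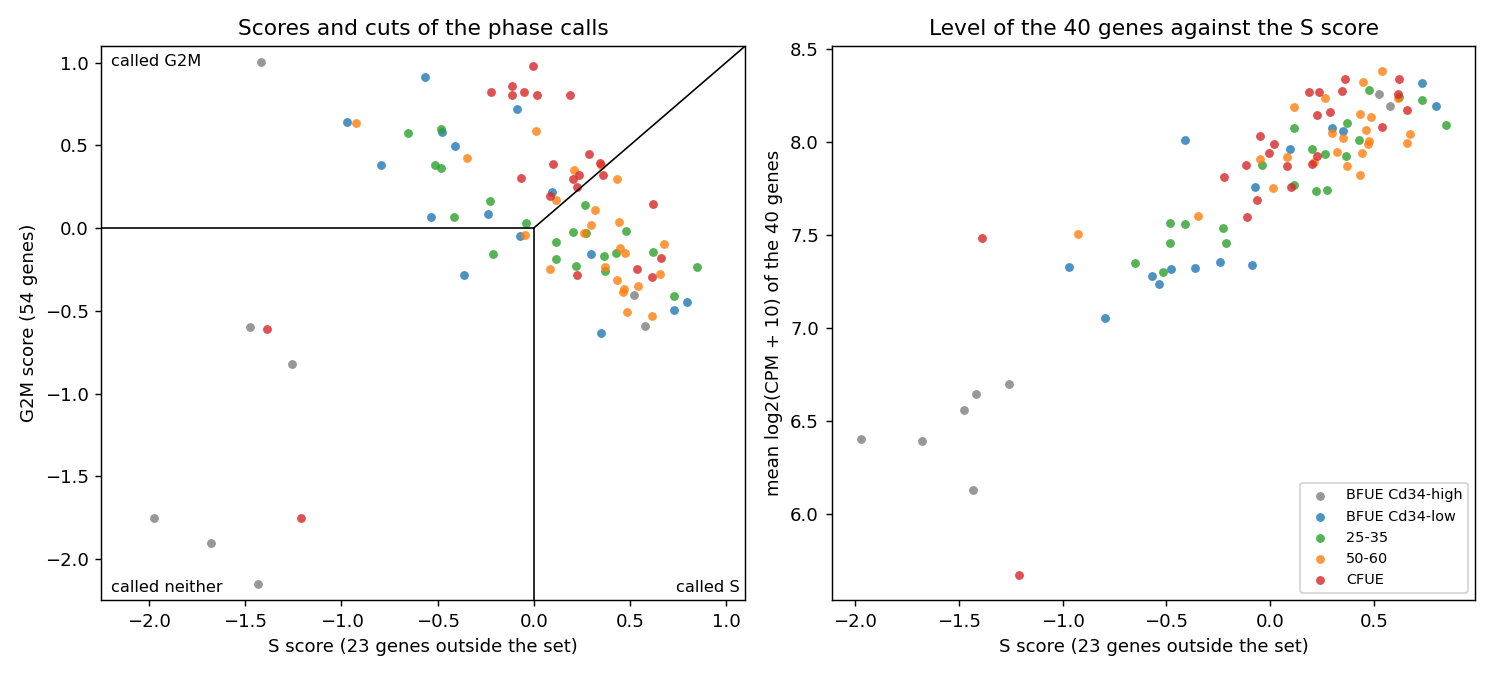
Left, the S score (23 genes outside the set) and the G2M score (54 genes) of each of the 91 cells, coloured by group, with the cuts of the phase calls as lines. Right, the mean log2(CPM + 10) of the 40 genes against the S score, where cells with a high S score sit at the top and CFUE well D10 at the bottom, at 5.67.

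The members followed the S score cell by cell. Across the 91 cells, the mean log2(CPM + 10) of the 40 genes had a Pearson correlation of 0.89 and a Spearman correlation of 0.84 with the S score, and 0.85 and 0.85 after centring within groups. With the G2M score the values were 0.35 and -0.14. Both scores come from the same libraries, so these are descriptions over cells that share depth and plate; the centred correlation of the member mean with the log2 reads of the well was 0.11. The median member mean was 7.36 in Cd34-low BFUE, 7.87 in Intermediate_25-35, 8.002 in Intermediate_50-60 and 7.99 in CFUE, so the member level of CFUE was close to that of Intermediate_50-60 while its share of cells called S was lower.

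Compared with cells called neither, 39 of the 40 members had a higher mean CPM in cells called S, and 29 did so by 1.5-fold or more, led by Rrm2 at 3.58 and Lig1 at 3.03, where 19.9% of all genes were higher by as much and 28.7% lower. Gate and class are mixed here, since 5 of the 11 cells called neither were Cd34-high BFUE and 1 was well D10, while 30 of the 42 cells called S came from the intermediate gates. Without the Cd34-high wells and D10, 5 cells called neither remained, 14 members were higher in S by 1.5-fold or more (19.01% of all genes), 0 lower, and the median ratio went from 1.73 to 1.32. The 1 exception was Orc6, at 0.871, whose value in the 11 cells called neither includes well D10. Compared with cells called G2M, 36 members were higher in S but 8 reached 1.5-fold and 0 were lower by as much, where 5.25% and 7.33% of all genes were: Rrm2 (1.85), Cdt1 (1.80), Rfc3 (1.79), Gins3 (1.72), Cdc6 (1.71), Rpa2 (1.66), Chaf1b (1.56) and Cdc45 (1.504). Mcm10, Mcm4, Orc6, Slbp and Chaf1a lay between 1.38 and 1.497. Rfc5, Rfc2, Rrm1 and Gins1 were at 0.944 to 0.997. These values pool gates of different class shares: within Cd34-low BFUE, Rrm1 had 1104 CPM in S against 889 in G2M, and within CFUE 1576 against 1569. Cdt1 mean CPM was 359 in S, 200 in G2M and 250 in cells called neither.

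The comparison of CFUE with Cd34-low BFUE was repeated within each called class. These 2 groups had similar shares of cells called S (26.1% and 26.7%) and G2M (65.2% and 60.0%). Among cells called G2M (15 CFUE and 9 BFUE), 36 of 40 members had a higher mean CPM in CFUE, 16 by 1.5-fold or more, 1 (Pola1) was lower by as much, and the median ratio was 1.40. Over all genes in that class, 16.4% were higher and 26.7% lower by as much. The cells of the class did not match in S score, which was over 0 in 9 of the 15 CFUE cells and 1 of the 9 BFUE cells (medians 0.083 and -0.48). Among the 6 and 8 cells called G2M with an S score of 0 or less, 12 members were higher by 1.5-fold or more and 2 lower (18.4% and 27.8% of all genes). Among cells called S (6 and 4), 19 of 40 were higher, 2 by 1.5-fold or more (Rrm2 and Cdc6), 3 were lower by as much (Gins3, Pold1 and Rfc2), and the median ratio was 0.992, where 20.8% of all genes were higher and 29.3% lower. Rrm2 went from 186 to 870 CPM in the G2M class and from 665 to 1395 in the S class, ratios of 4.67 and 2.10. Cdc6 had ratios of 2.49 and 1.70. Gmnn (2.03 and 0.985), Rfc4 (2.07 and 1.23) and Clspn (2.70 and 0.779) stood at 1.5-fold in the G2M class and under it in the S class. Pold1 was lower in both, 0.685 and 0.372. With 4 cells in 1 arm, the values of the S class rest on few cells, and the difference between the classes was not tested.

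**Figure D5:**
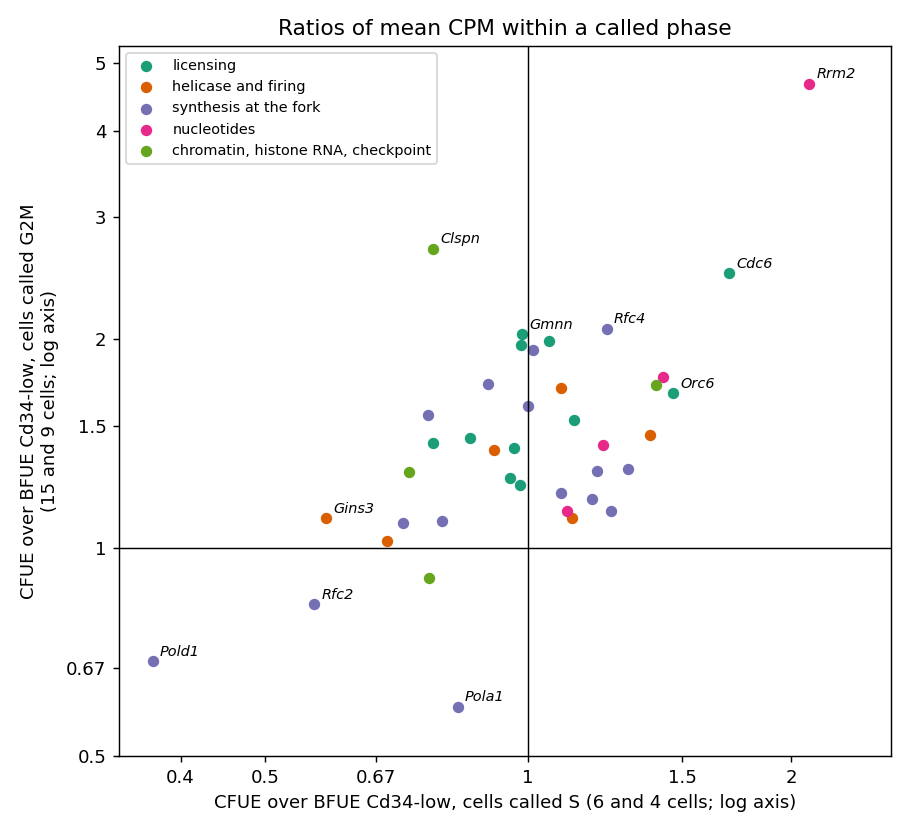
Ratio of mean CPM, CFUE over Cd34-low BFUE, for each of the 40 genes (points, coloured by role) among cells called S (horizontal) and among cells called G2M (vertical), both on log axes. Points gather around 1 on the horizontal axis and above 1 on the vertical axis, with Rrm2 and Cdc6 above 1.5 on both.

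Other genes of the same processes, listed by role, were read by the same rule in CFUE over Cd34-low BFUE. Of 33 other replication genes, 9 were higher and 2 lower (median log2 ratio 0.39), where 13.6% of all genes were higher and 24.9% lower. Orc5, a further origin recognition subunit, went from 115 to 303 CPM (2.63, interval 2.52 to 2.73) and Donson, a helicase assembly factor, from 38.0 to 82.5 (2.17). Mcm9, a helicase of recombination repair, was 2.66-fold lower, and Pold4, the smallest subunit of polymerase delta, 2.57-fold lower, in the same direction as Pold1.

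Of 19 measured other nucleotide genes (of 20), 2 were higher and 5 lower, with a median of 0.076. These counts are near the shares of all genes, 13.6% higher and 24.9% lower. Dck, the deoxycytidine kinase of the salvage route, went from 112 to 318 CPM (2.83, interval 2.72 to 2.95). Ctps2, a CTP synthase, was 12.4-fold lower (10.4 to 14.8), at 50.7 against 4.09 CPM, and Shmt1, the cytosolic serine hydroxymethyltransferase, 4.42-fold lower (4.19 to 4.67), at 216 against 49.0 CPM. Of 10 other genes of chromatin copying, 1 was higher, the histone chaperone Asf1a at 1.87, and 0 lower, beside the same shares of all genes. Mms22l, a fork repair factor, had 1.39, Cdca7, a chromatin remodelling partner, 0.836, and Dnmt1, the maintenance DNA methyltransferase, 0.715.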

How the data were processed

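The authors deposited 1 table of read counts per gene for 96 single-cell Smart-seq2 libraries. Per the submitters' processing notes, STAR 2.4, featureCounts and the GRCm38 build were used; the sources used here do not give the annotation or the multimapping and strand settings. No pair of wells held identical values. Kept wells had 50000 or more reads and 1000 or more genes. Counts were scaled to CPM per well and summed over wells of a gate, with exact Poisson intervals, and ratios carried exact conditional binomial intervals (95%). A level with 0 reads was set to 3 reads. Reads carry no molecular identifiers, so intervals cover counting error only. A member was called at 1.5-fold or more with 10 CPM or more in either group. With 1 sample a gate, no test was run. The ratio and score calculations were tested on simulated data. Per-kilobase levels used the longest principal transcript of GENCODE M21, which holds 99.72% of the gene identifiers, and Fam64a and Hn1 were matched by current symbols. Promoters came from RefSeq (GRCm38.p6). Members and gene lists were chosen with earlier results of these data known. Named members are those called in CFUE against BFUE or in any neighbouring step, plus, for each role, the uncalled gene highest per kilobase, and of each other list the 2 largest and 2 smallest ratios, of which 1 is not reported here; the Mcm6 promoter, the remaining members and the other marker lists were added after values were seen. Pcna-ps2, a Pcna pseudogene, held 3146 reads in all kept wells. Of the other marker lists, summed in Cd34-low BFUE and CFUE, stem and multipotent genes had 466 and 5.50 CPM, lymphoid 9.46 and 0.254, megakaryocyte 261 and 24.9, mast cell and basophil 0.038 and 0, macrophage 3.51 and 0.028, hepatoblast 251 and 153, and endothelial and stromal 13.2 and 0.113. Software was Python 3.11.15 (scipy 1.17.1, matplotlib 3.10.9, pandas 2.3.3, numpy 2.4.6) and R 4.3.3 with edgeR 4.0.16 and DESeq2 1.42.0 for scaling factors in alternatives. Alternatives varied scaling, wells kept, genes in the total, depth, plate rows, single wells, the filter, the fold, and the genes, centring and pseudocount of the scores; leaving out well D10 was added after the data were seen.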

Additional observations from a re-analysis of the deposited data

How the results depend on the processing

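The member median kept its sign under 94 of 98 alternatives, but some of these could not change it. A higher cut on reads per well kept the same wells. The 2-fold threshold and leaving out the filter kept every member and its ratio. Leaving out well D10 could not alter comparisons without CFUE. Such alternatives repeat the main median and say nothing of its stability. The sign changed only at the last step. There the main median of 0.0077 became -0.010 (mean of per-cell CPM), -0.0040 (thinned), -0.14 (the upper rows) and -0.013 (without the top well of each gene). Counts of members past the threshold moved as follows, with the share of all genes in parentheses. CFUE over BFUE: 20 higher with TMM (17.5% of all genes), 19 with DESeq2 factors (17.1%) and 4 at 2-fold (6.97%), against 12 and 13.7% in the main setting. In the same comparison 2 were lower with per-cell means (30.9%), thinning (31.0%) or the upper rows (32.8%). CFUE over Cd34-low BFUE: 17 higher in the upper rows and 1 at 2-fold, with 0 lower with TMM, DESeq2 factors or 2-fold and 2 lower in the upper or the lower rows alone. First step, upper rows: 10 higher and 1 lower against all BFUE (14.35% and 27.05%), and the same counts against Cd34-low (14.9% and 23.5%). At 2-fold, 1 was higher against Cd34-low (3.72%). Middle step: 3 higher in the upper rows (11.7%). Last step: 0 lower with DESeq2 factors (9.01%), at 2-fold (3.23%) or without well D10 (8.94%), and 2 lower in the upper rows (15.5%) or without the top well (10.6%). Cd34-high over Cd34-low: 5 higher in the upper rows (31.9%), and 0 in the lower rows (33.7%), without the top well (23.2%) or at 2-fold (22.4%). Lower were 18 in the lower rows (27.7%), 22 without the top well (35.05%) and 7 at 2-fold (15.1%). Gins3 reversed to -0.25 in the lower rows. The CFUE share called S was 52.2% with scores centred within gates, a setting that takes out differences between gates. The other 41 shares stayed within their intervals. Members higher in cells called S than in those called neither went from 29 to 14 without the Cd34-high wells and well D10, and members lower in CFUE among cells called G2M from 1 to 2 at an S score of 0 or less, both settings chosen after seeing the data. The cause of these changes was not tested. No paired analysis was possible because replicate numbers only name wells and no test was run. Rare members such as Clspn, Orc1 and Gins3 had no reads in some wells, and the part of read depth in this was not tested.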

Other observations

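Replication-dependent histone genes, whose transcripts end in a stem-loop and mostly lack a poly(A) tail, were summed over 68 symbols, a list made after the data were seen. Their summed level was 416.5 CPM in Cd34-high BFUE, 287 in Cd34-low BFUE, 212 in Intermediate_25-35, 269 in Intermediate_50-60 and 245 in CFUE. It was 251 CPM in cells called S, 256 in cells called G2M and 362 in cells called neither. Of the 11 cells called neither, 5 were Cd34-high BFUE, so class and gate are mixed here. This sum thus did not follow the S class in these oligo-dT primed libraries, while Slbp had a mean of 452 CPM in S and 323 in G2M.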
